A study of Mus musculus with 12 samples.

Results

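The genes described here are 10 feedback inhibitors of the EGFR-Ras-ERK pathway, namely the phosphatase genes Dusp1, Dusp4, Dusp5 and Dusp6, the Sprouty genes Spry1, Spry2 and Spry4, the Spred genes Spred1 and Spred2, and Errfi1. They were chosen by name, and all 10 had a row among the 24340 gene rows of each deposited gene table. Messenger RNA of mouse cardiac samples was sequenced in 12 libraries, 3 in each of 4 groups. The groups with values here were 9wkKO (EGFR KO genotype, 9 weeks of age), 7wkKO (EGFR KO genotype, 7 weeks) and 7wkWT (WT genotype, 7 weeks), while 9wkWT was not analysed here. The series' design text calls the knockout cardiac. The sources used here do not give the strain, the Cre driver or the deleted part of Egfr. Nor do they say whether replicates are different animals, so the deposited p-values may measure technical spread only.

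Signals from EGFR and other receptor tyrosine kinases pass through Ras, RAF and MEK to the kinase ERK. ERK in turn raises transcription of genes whose products switch the pathway off, so their messenger RNAs are widely used as a readout of ERK activity. ERRFI1 binds the kinase domain of EGFR, Sprouty and Spred proteins act between the receptor and RAF, and dual-specificity phosphatases remove phosphate from ERK itself. In the heart, ERK signalling is known for its part in the growth of cardiac muscle cells.

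The promoters of Dusp1, Dusp5 and Errfi1 are shown because they hold letters of elements through which kinase signals are known to reach transcription. The 250 bases before the RefSeq start (build GRCm38.p6, the assembly of mm10) were searched on both strands for TGACGTC, the core of the cAMP response element that CREB-family factors bind. They were also searched for the full palindrome TGACGTCA, which contains that core, and for the CArG box, the binding element of serum response factor. Capitals mark the matches, and sequences run 5′ to 3′ on the gene's strand.
Dusp1, chr17:26508473-26508722, minus strand: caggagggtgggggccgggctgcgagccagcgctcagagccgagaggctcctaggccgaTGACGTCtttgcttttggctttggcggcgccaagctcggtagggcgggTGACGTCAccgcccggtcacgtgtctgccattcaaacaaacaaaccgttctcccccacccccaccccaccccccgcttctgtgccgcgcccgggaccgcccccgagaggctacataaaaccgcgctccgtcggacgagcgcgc
Dusp5, chr19:53528895-53529144, plus strand: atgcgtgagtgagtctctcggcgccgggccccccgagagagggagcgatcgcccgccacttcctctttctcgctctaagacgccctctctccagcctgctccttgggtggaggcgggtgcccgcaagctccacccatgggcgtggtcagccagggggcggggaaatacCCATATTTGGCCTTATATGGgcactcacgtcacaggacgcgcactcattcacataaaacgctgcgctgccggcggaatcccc
Errfi1, chr4:150854820-150855069, plus strand: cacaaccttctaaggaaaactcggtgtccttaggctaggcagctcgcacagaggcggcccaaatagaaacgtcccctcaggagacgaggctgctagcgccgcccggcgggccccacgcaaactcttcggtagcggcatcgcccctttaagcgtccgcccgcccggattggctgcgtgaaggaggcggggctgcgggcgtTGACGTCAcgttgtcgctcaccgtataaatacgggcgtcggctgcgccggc

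Dusp1 held the full palindrome at -143 to -136 relative to the start and a further core at -191 to -185. Dusp5 held adjoining CArG boxes at -82 to -73 and -72 to -63, and Errfi1 held the palindrome at -51 to -44. Positions count from the RefSeq start that each window precedes. The loci quantified for Dusp5 and Errfi1 begin further downstream, at 53529318 and 150855091, so their matches lie further from those starts. Windows were read for 8 of the 10 genes, in 9 promoters, since Errfi1 has 2 starts, and those of Dusp4 and Spry4 were not used here. The palindrome stood in 2 of the 9 and in 1.55% of all 32851 promoters of the same length. The core stood in 3 of the 9, belonging to Dusp1, Errfi1 and Spred2, and in 2.78% of all. A CArG box stood in 1 of the 9 and in 1.47% of all. The letters CCGGAA, a form of the site bound by ETS factors, stood in 0 of the 9 and in 12.03% of all. Other forms of that site were not searched, so this count does not show that ETS sites are absent. The other 4 genes read, Dusp6, Spry1, Spry2 and Spred1, held no match to any of the letters searched. Matches describe letters and do not show binding.

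The deposited tables hold 1 FPKM value per group, which is fragments per kilobase of transcript scaled to the number of mapped fragments, and none per sample. Depth and the spread between replicates are therefore unknown, and no SD can be given. All levels given are FPKM from the authors' deposited tables, which were made with Cuffdiff and also supply each p and q, and log2 folds are ratios of those levels. A gene is called where the deposited q was under 0.05. The error of a fold was read back from the deposited p and, separately, from the deposited test statistic, whose 95% intervals were wider by a median of 1.74 times. Egfr was listed at 1.64 in 7wkKO and 1.197 in 7wkWT (q = 0.379), and at 1.59 in 9wkKO and 1.65 in 7wkKO (q = 0.991). A value summed over all exons of Egfr cannot check the genotype, so each direction refers to samples labelled knockout. Of 8 cardiomyocyte markers the lowest level in any of these groups was 73.9, for Ryr2 in 7wkWT.

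The 10 genes spanned a wide range of levels and kept the same order in all 3 groups. Dusp1 was the most abundant in the authors' deposited tables, at 66.3 FPKM in 9wkKO, 56.4 in 7wkKO and 53.3 in 7wkWT. Dusp4 was the least abundant, at 1.10 FPKM in 9wkKO, 0.814 in 7wkKO and 0.731 in 7wkWT. Between them, from high to low, came Spry1, Errfi1, Dusp6, Spred2, Spry2, Spred1, Spry4 and Dusp5. The highest and lowest differed by 60.4-fold in 9wkKO, 69.3-fold in 7wkKO and 72.9-fold in 7wkWT. With 1 value per group, whether neighbours such as Spred2 and Spry2 differ beyond the spread between replicates is unknown. For these genes the 7wkKO values of the later table were 0.760% to 0.831% above those of the earlier one, although both describe 7wkKO.

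**Figure D1:**
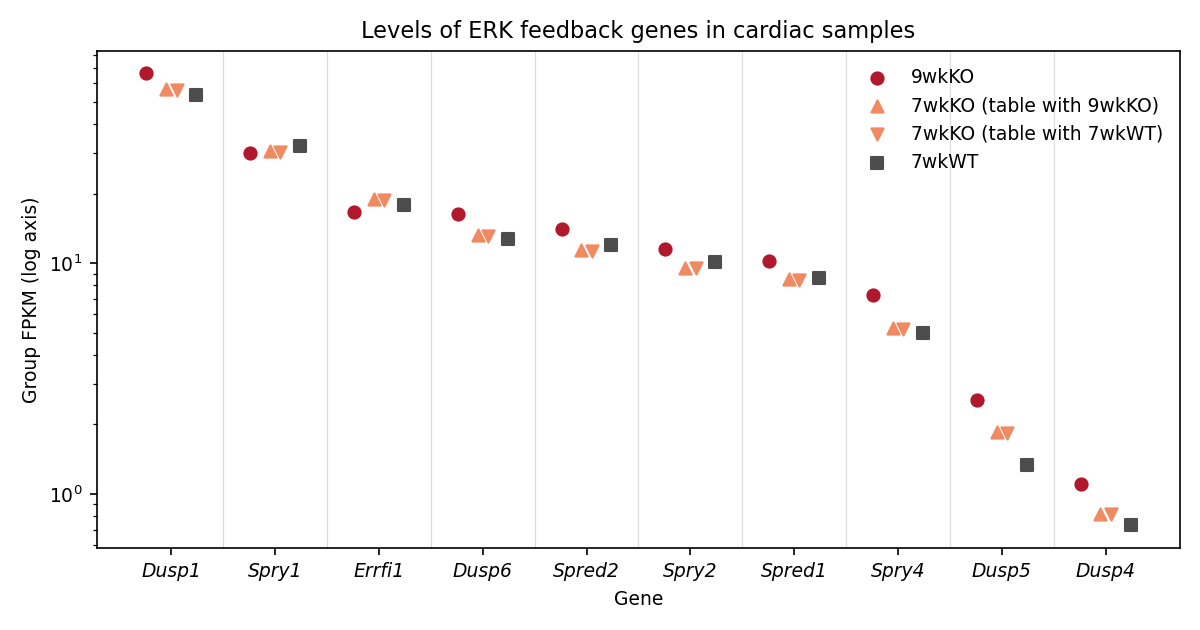
Group FPKM on a log axis for each of the 10 genes, ordered by level, with 9wkKO, 7wkKO and 7wkWT from left to right within a gene. Dusp1 stood highest and Dusp4 lowest in every group, and the 9wkKO value was the highest of its gene in 8 of the 10. The share of all genes with that order was not computed.

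The first comparison set the knockout samples against wild type at 7 weeks. None of the feedback genes was called: 0 of 10 passed the deposited Cuffdiff test, and 0 reached an unadjusted p under 0.05. Of all 11987 tested genes 2.37% were called and 11.3% had an unadjusted p under 0.05. The log2 folds of the 10 ran from -0.10 (Spry2) to 0.47 (Dusp5), with a median of 0.06, beside -0.00061 for all tested genes. Of the 10 folds 6 were above 0, beside 49.9% of those of all tested genes. They were below 0.2 in size for 9 of the 10 and for 65.7% of all tested genes.

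At the receptor, Errfi1 (mm10, chromosome 4, 150855091 to 150868880) was listed by the authors' deposited table at 18.8 FPKM in 7wkKO and 17.9 in 7wkWT. Its log2 fold was 0.07 (q = 0.957), with an interval of -0.21 to 0.36 from the deposited p and -0.43 to 0.57 from the statistic. Errfi1 is induced by EGFR signalling and its product blocks the receptor. Both intervals include 0.

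Sprouty proteins are cytoplasmic inhibitors that intercept signals between receptor tyrosine kinases and RAF. The authors' deposited table put Spry1 (chromosome 3, 37639947 to 37644599), the most abundant of the 3, at 30.4 FPKM in 7wkKO and 32.2 in 7wkWT (log2 fold -0.08, q = 0.944). It put Spry2 (chromosome 14, 105891947 to 105896819) at 9.48 in 7wkKO and 10.1 in 7wkWT (log2 fold -0.10, q = 0.941). Spry4 (chromosome 18, 38586265 to 38601268) stood at 5.18 in 7wkKO and 4.97 in 7wkWT (log2 fold 0.06, q = 0.968). All 3 folds were below 0.1 in size.

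Spred proteins carry the Ras inhibitor neurofibromin to the membrane. The authors' deposited table gave Spred1 (chromosome 2, 117121071 to 117182277) 8.46 FPKM in 7wkKO and 8.58 in 7wkWT, a log2 fold of -0.02 (q = 0.991). It gave Spred2 (chromosome 11, 19924442 to 20022597) 11.3 in 7wkKO and 12.02 in 7wkWT, a log2 fold of -0.09 (q = 0.940). Both stood slightly lower in the knockout samples, within their errors.

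The phosphatases act at the end of the cascade. Dusp1 (chromosome 17, 26505591 to 26508472), an immediate early gene for a nuclear phosphatase of several MAP kinases, had a log2 fold of 0.08 (q = 0.944), with an interval of -0.20 to 0.37 from the deposited p. Dusp6 (chromosome 10, 99263231 to 99267489), whose product is a cytoplasmic phosphatase selective for ERK, was given 13.2 FPKM in 7wkKO and 12.7 in 7wkWT by the authors' deposited table. Its log2 fold was 0.05 (q = 0.971), with an interval of -0.24 to 0.35. The nuclear phosphatase genes Dusp4 and Dusp5 were the least abundant and had the widest intervals. The authors' deposited table listed Dusp5 (chromosome 19, 53529318 to 53541322), whose product is selective for ERK, at 1.83 in 7wkKO and 1.33 in 7wkWT, a log2 fold of 0.47 (p = 0.185, q = 0.719). Its interval ran from -0.22 to 1.16, so a fold of that size was within the error of its own estimate, and with a pseudocount of 1 the fold was 0.28. Dusp4 (chromosome 8, 34807610 to 34819894) had a log2 fold of 0.16 (q = 0.959) with an interval of -0.50 to 0.81, and a fold of 0.07 with the same pseudocount.

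For the 10 genes these data do not show the absence of a change at 7 weeks. The intervals limit its size only if the deposited p or statistic captures the spread between animals, which is unknown. Intervals from the deposited p lay between -0.5 and 0.5 on the log2 scale for 8 of the 10, the exceptions being Dusp4 and Dusp5. With the wider errors of the statistic 8 lay between -1 and 1, with the same exceptions, and all 10 included 0.

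The second comparison set 9wkKO against 7wkKO, so that age and any other difference between these groups cannot be told apart. Here 1 of the 10 genes, Spry4, was called higher and 0 were called lower, beside 4.66% of 12046 tested genes called in either direction and 1.89% called higher. An unadjusted p under 0.05 was reached by 3 of the 10, Spry4, Spred2 and Dusp6, all with a higher level in 9wkKO. Of all tested genes 12.9% reached that p in either direction and 6.53% with a higher level in 9wkKO. The log2 fold was above 0 for 8 of the 10 and for 53.1% of all tested genes, and the medians were 0.28 and 0.01. A fold below 0.2 in size was seen in 2 of the 10 and in 68.6% of all tested genes.

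The authors' deposited table gave Spry4 7.29 FPKM in 9wkKO and 5.23 in 7wkKO. That is a log2 fold of 0.48, or 1.39-fold, called by the authors' Cuffdiff test (p = 0.0012, q = 0.0304), and it exceeded the folds of 96.0% of tested genes. The interval was 0.19 to 0.77 from the deposited p and -0.03 to 0.99 from the statistic. The call therefore rests on the deposited p, and it was lost at a q under 0.01, with a minimum log2 fold of 0.58 and with a normal p of the statistic. At 7 weeks, in the comparison that shares the 7wkKO samples, the log2 fold of Spry4 was 0.06.

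The other Sprouty genes had smaller folds and were not called. The authors' deposited table listed Spry2 at 11.5 in 9wkKO and 9.56 in 7wkKO, a log2 fold of 0.27 (p = 0.0771, q = 0.489) with an interval of -0.03 to 0.57. It listed Spry1 at 29.96 in 9wkKO and 30.6 in 7wkKO, the log2 fold being -0.03 (q = 0.994) and its interval of -0.30 to 0.24. Whether the changes of Spry1 and Spry4 differ from each other was not tested.

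Both Spred genes had higher listed values in 9wkKO without passing the threshold. According to the authors' deposited table, Spred2 had 14.1 FPKM in 9wkKO and 11.4 in 7wkKO, a log2 fold of 0.31 (p = 0.0312, q = 0.297). Spred1 had 10.2 in 9wkKO and 8.52 in 7wkKO, and its log2 fold was 0.26, with the authors' p = 0.0563 and q = 0.411. Their intervals from the deposited p were 0.03 to 0.58 for Spred2 and -0.01 to 0.53 for Spred1. From the statistic they were -0.18 to 0.80 for Spred2 and -0.22 to 0.74 for Spred1. With those wider errors the intervals of all 10 feedback genes included 0 in this comparison.

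The 4 phosphatase genes likewise all had higher values in 9wkKO than in 7wkKO, and 0 of the 4 were called. The authors' deposited table gave Dusp6 16.3 FPKM in 9wkKO and 13.3 in 7wkKO (log2 fold 0.29, p = 0.0366, q = 0.326). Dusp1 stood at 66.3 in 9wkKO and 56.9 in 7wkKO, with a log2 fold of 0.22 (q = 0.566). The fold of Dusp5, at 2.56 in 9wkKO and 1.85 in 7wkKO, was close to that of Spry4 (log2 fold 0.47, q = 0.556), but its interval from the deposited p was wider, at -0.09 to 1.03. With a pseudocount of 1 the folds were 0.32 for Dusp5 and 0.41 for Spry4. Dusp4 stood at 1.10 in 9wkKO and 0.821 in 7wkKO (log2 fold 0.42, or 0.21 with that pseudocount; q = 0.659). Errfi1, whose product acts on EGFR itself, had the lowest fold of the 10, at 16.7 in 9wkKO and 18.9 in 7wkKO (log2 fold -0.18, q = 0.731).

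**Figure D2:**
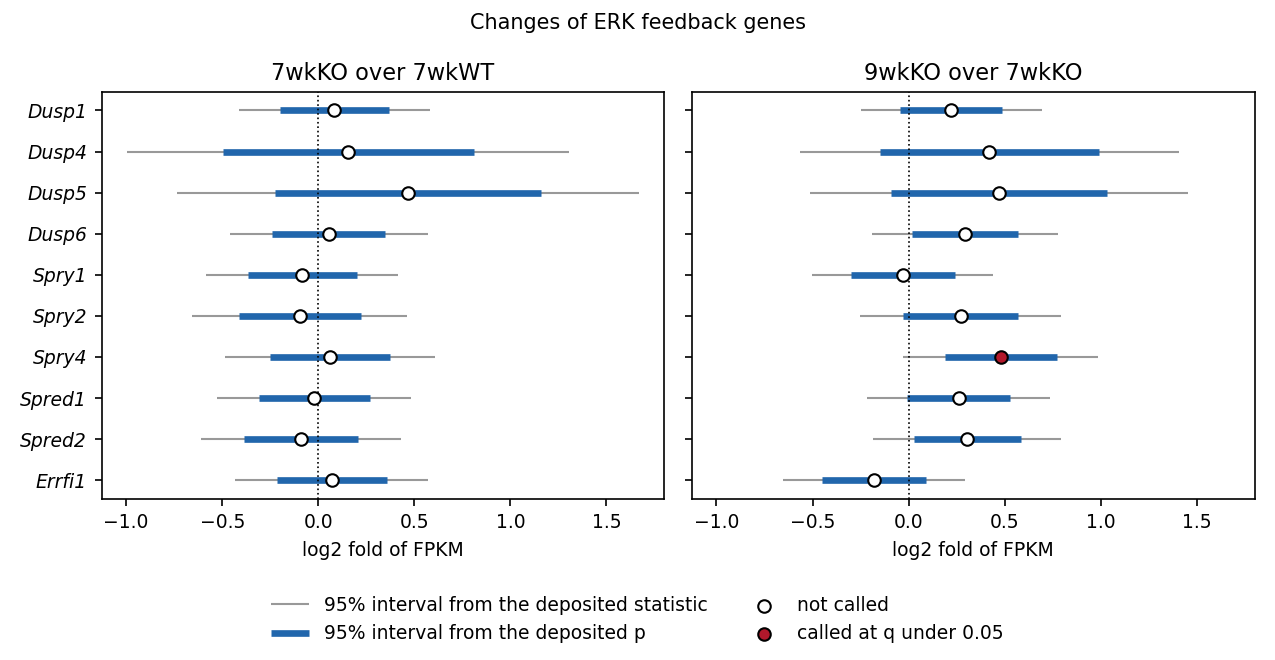
Log2 fold of FPKM for each of the 10 genes in 7wkKO over 7wkWT (left) and 9wkKO over 7wkKO (right), with 95% intervals from the deposited p (thick) and from the deposited statistic (thin). All 10 thick intervals cross 0 on the left and 7 of 10 on the right, where Spry4 is the only one of these genes called.

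**Figure D3:**
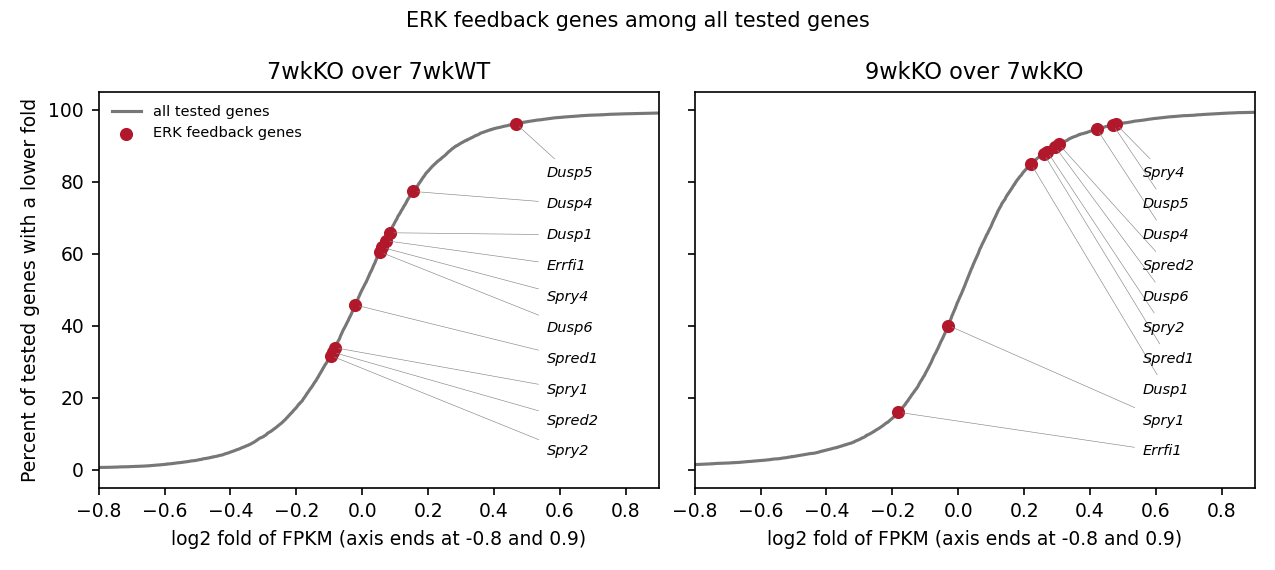
Cumulative distribution of log2 folds over all tested genes (line) with the 10 genes marked, for 7wkKO over 7wkWT (left) and 9wkKO over 7wkKO (right). On the left 9 of the genes lie between percentiles 31.8 and 77.4 and Dusp5 lies above them, and on the right 8 lie between percentiles 85.0 and 96.0, with Spry1 at 40.1 and Errfi1 at 16.0.

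No deposited table used here tests 9wkKO against 7wkWT. The sum of both log2 folds places 9wkKO above 7wkWT for 8 of the 10 genes, with values of 0.17 for Spry2 up to 0.94 for Dusp5, and below it for Spry1 and Errfi1, each at -0.11. The sum was 0.54 for Spry4, 0.58 for Dusp4, 0.35 for Dusp6 and 0.30 for Dusp1. These sums span tables that were normalized separately, age and genotype differ together in them, and they carry no test. Those of Dusp5 and Dusp4 rest on the lowest levels of the 10 and use no pseudocount. With a pseudocount of 1 the separate folds, at 7 weeks and from 7 to 9 weeks, were 0.28 and 0.32 for Dusp5. For Dusp4 they were 0.07 and 0.21. The share of all tested genes with a sum above 0 was not computed, so the 8 of 10 has no background beside it.

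At the isoform level, 8 of the genes had a single listed transcript, whose FPKM and p equal those of the gene. Among 14 listed isoforms of the 10 genes 12 were tested by Cuffdiff. At 7 weeks 0 of the 12 were called and 0 had an unadjusted p under 0.05, where 1.42% of 15470 tested isoforms were called and 9.3% reached that p. In 9wkKO over 7wkKO 1 of the 12 was called, that of Spry4 (q = 0.0431), where 2.93% of 15531 were called, and 3 reached an unadjusted p under 0.05, where 9.89% of all did. Spry1 had 4 transcripts, and the GENCODE M21 transcripts matched to them all encode 313 codons. Of the summed Spry1 FPKM, NM_011896 made up 52.4% in 7wkKO and 45.9% in 7wkWT, and 55.8% in 9wkKO against 52.4% in 7wkKO. NM_001305441 was listed in the authors' deposited tables at 5.997 in 7wkKO and 8.23 in 7wkWT (q = 0.834), and at 3.90 in 9wkKO and 6.04 in 7wkKO (q = 0.860). Of Spred1, 98.3% in 7wkKO and 97.4% in 7wkWT came from the transcript of 444 codons, and the rest from one of 229 codons that was not tested.

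The genes closest in pattern to Spry4 were found by the distance over both log2 folds, for 11247 genes tested in both tables at an FPKM minimum of 1. Nearest was Tnfaip2, with log2 folds of 0.06 in 7wkKO over 7wkWT and 0.49 in 9wkKO over 7wkKO (q = 0.0225 for the second). Next came Tmem238, with 0.05 and 0.48 (q = 0.344), and Pla2g7, with 0.05 and 0.49 (q = 0.102). Both folds share the 7wkKO samples, and the likeness is a description of group values.

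Upstream of the feedback genes, 2 of 5 tested EGFR-family receptor and ligand genes were called higher at 7 weeks and 0 lower. Of all tested genes 2.37% were called in either direction. The 5 had a median log2 fold of 0.48, and the other 9 of the 14 listed were not tested. An unadjusted p under 0.05 was reached by 4 of the 5, Hbegf, Erbb3, Egf and Egfr itself, all higher in 7wkKO. Of all tested genes 11.3% reached that p in either direction, and the share that was higher was not counted. Levels were low for Egf, at 1.40 FPKM in 7wkKO and 1.002 in 7wkWT, and for Egfr, at 1.64 and 1.197. Hbegf, which encodes an EGFR ligand, was given 14.5 FPKM in 7wkKO and 9.56 in 7wkWT by the authors' deposited table (log2 fold 0.60, q = 0.0124). Erbb3, a receptor gene of the family, was given 1.94 in 7wkKO and 1.10 in 7wkWT (log2 fold 0.82, q = 0.0314). In 9wkKO over 7wkKO 0 of the 5 were called by Cuffdiff and 1 had an unadjusted p under 0.05. Of 5 tested FGF receptor and adaptor genes, whose signals Sprouty proteins also restrain, 0 were called in both comparisons, while 1 (at 7 weeks) and 0 (later) had an unadjusted p under 0.05. The most abundant of these were Fgfr1, listed in the authors' deposited table at 14.04 in 7wkKO and 12.7 in 7wkWT, and Fgfr3, at 5.32 in 7wkKO and 6.87 in 7wkWT.

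The kinases and adaptors of the cascade had medians close to 0. Among 22 tested genes 0 were called by Cuffdiff at 7 weeks, 2 had an unadjusted p under 0.05, and the median log2 fold was -0.01. The later comparison had 1 called lower and 0 higher, with a median of -0.02. At an unadjusted p under 0.05, 2 were higher in 9wkKO and 1 was lower. The gene called was Rps6ka3, which encodes an ERK-activated ribosomal S6 kinase, with 9.82 FPKM in 9wkKO and 13.4 in 7wkKO by the authors' deposited table (log2 fold -0.45, q = 0.0314). The 2 that were higher, Rps6ka1 (log2 fold 0.38, q = 0.276) and Rps6ka2 (log2 fold 0.35, q = 0.169), were not called.

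Other inhibitors of the pathway did not pass the test in either comparison. Of the other MAP kinase phosphatase genes 4 were tested, and 0 were called by Cuffdiff at 7 weeks (0 with an unadjusted p under 0.05) or in 9wkKO over 7wkKO (1 with such a p), with median log2 folds of 0.13 and 0.0026. That 1 gene, singled out after its values were seen, was Dusp10, to which the authors' deposited table gave 3.78 in 9wkKO and 2.71 in 7wkKO (log2 fold 0.48, q = 0.188). The most abundant were Dusp7, at 31.9 in 9wkKO and 29.3 in 7wkKO, and Dusp8, at 15.7 in 9wkKO and 17.0 in 7wkKO. Further inhibitor genes had 0 of 13 called at 7 weeks and 0 of 14 in 9wkKO over 7wkKO, each with a median of -0.06 and with 0 at an unadjusted p under 0.05. Among them the authors' deposited table listed Pebp1, which encodes a RAF inhibitor, at 194 in 7wkKO and 200.3 in 7wkWT, and Dab2ip at 26.1 in 7wkKO and 29.8 in 7wkWT. The remaining family members Spry3, listed at 0, and Spred3, at 0.232 in 7wkKO and 0.336 in 7wkWT, were not tested.

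Other transcripts known to respond to ERK moved in both directions. At 7 weeks 1 of 12 tested was called, the transcription factor gene Myc, beside 2.37% of all tested genes. The authors' deposited table gave Myc 7.21 FPKM in 7wkKO and 2.33 in 7wkWT (log2 fold 1.63, q = 0.004995). At an unadjusted p under 0.05, 1 was higher, Myc, and 1 was lower, Ccnd1 (log2 fold -0.33, q = 0.311). The median of the 12 was 0.01. In 9wkKO over 7wkKO 3 were called higher and 2 lower, with a median of 0.08. Of all tested genes 4.66% were called in either direction. At an unadjusted p under 0.05, 4 of the 12 were higher and 2 lower. Called higher were the immediate early genes Fos, Egr1 and Junb. The authors' deposited table gave Fos 4.12 in 9wkKO and 1.80 in 7wkKO, Egr1 11.2 in 9wkKO and 5.86 in 7wkKO, and Junb 22.6 in 9wkKO and 12.8 in 7wkKO. Their log2 folds were 1.20 for Fos, 0.93 for Egr1 and 0.82 for Junb, each at q = 0.00237. Called lower at the same q were Myc, at 2.996 in 9wkKO and 7.26 in 7wkKO (log2 fold -1.28), and the ETS factor gene Etv1, at 1.72 in 9wkKO and 3.31 in 7wkKO (log2 fold -0.94).

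**Figure D4:**
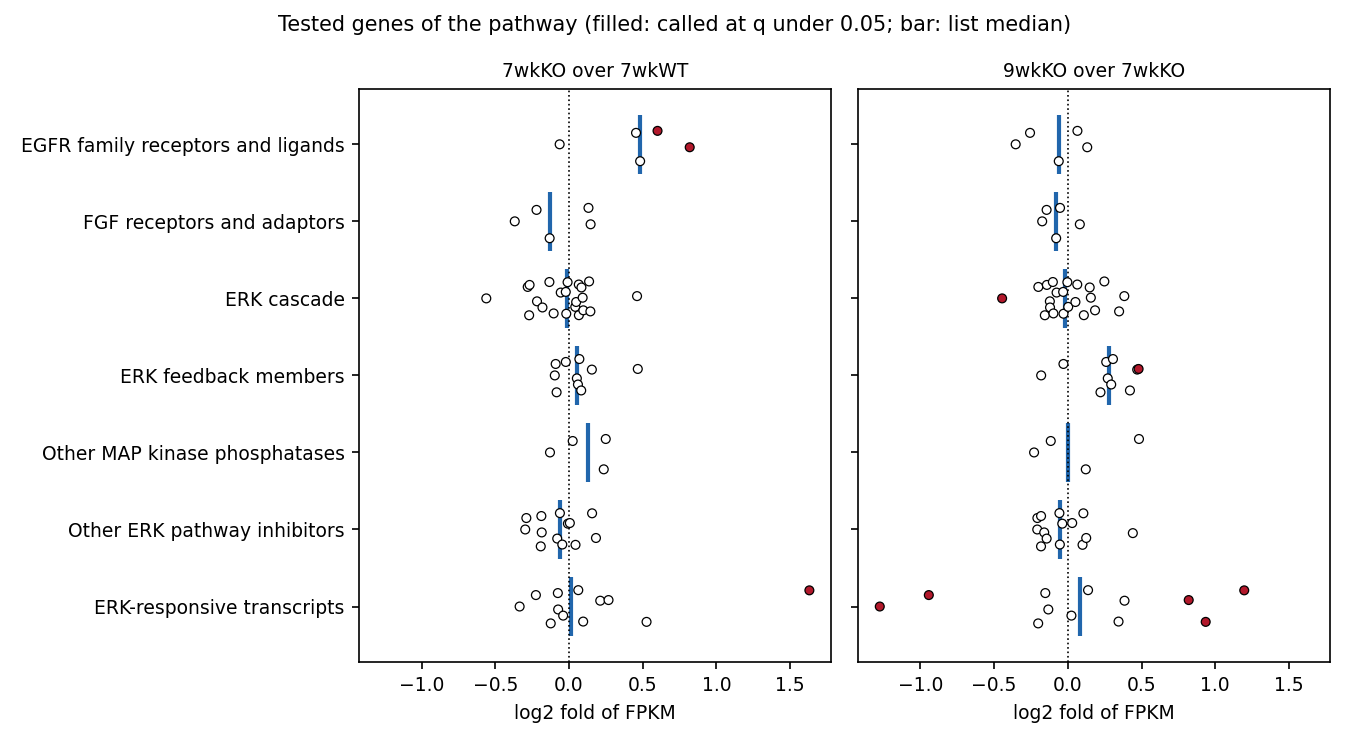
Log2 folds of tested genes in lists of the pathway for 7wkKO over 7wkWT (left) and 9wkKO over 7wkKO (right), 1 point per gene, filled where called, with the list median as a bar. The median of the feedback genes was 0.06 on the left and 0.28 on the right, that of the cascade was -0.01 and -0.02, and the called ERK-responsive transcripts on the right lie on either side of 0.

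Markers of other cell types also differed between these samples, and in bulk tissue fewer cells of a type and less RNA per cell cannot be told apart. In 9wkKO over 7wkKO, where Spry4 was called, 3 of 12 endothelial markers were called higher (Cldn5, Kdr and Emcn) and 0 lower. Their list had a median log2 fold of 0.35. At an unadjusted p under 0.05, 8 of the 12 were higher and 1, Aqp1, was lower (log2 fold -0.34). Summed FPKM of the 12 was 3308 in 9wkKO and 2555 in 7wkKO, of which Fabp4, which was not called, made up 2199 in 9wkKO and 1557 in 7wkKO. Without Fabp4, a sum added after the data were seen, the other 11 came to 1109 in 9wkKO and 998 in 7wkKO. At 7 weeks the sum was 2535 in 7wkKO and 3390 in 7wkWT, or 990 in 7wkKO and 1250.1 in 7wkWT without Fabp4, with 0 of 12 called, 8 at an unadjusted p under 0.05 and a median of -0.32. Smooth muscle and pericyte markers had 0 of 9 called and 2 at an unadjusted p under 0.05, a median of 0.21 and sums of 537 in 9wkKO and 478 in 7wkKO. Myeloid markers had 1 of 10 called higher, Cd14 (median 0.19), blood cell markers 1 of 4 called higher, Alas2 (median 0.37), and fibroblast markers 2 of 10 called lower, Lum and Postn (median -0.14). Atrial markers, described below, shifted further in 9wkKO over 7wkKO, with 7 of 8 called lower (median -2.82). The part of all these shifts in the values of the feedback genes was not tested.

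At 7 weeks, where 0 of the feedback genes were called, fibroblast markers had 1 of 10 called higher, Postn (median 0.19). Smooth muscle and pericyte markers had 0 of 9 called (1 at an unadjusted p under 0.05), myeloid markers 0 of 10 (0 at such a p) and blood cell markers 0 of 3 (1 at such a p). Hypertrophy markers had 8 of 8 called higher (median 1.65) and atrial markers 6 of 8, with Nppa in both lists. In 9wkKO over 7wkKO 4 of 8 hypertrophy markers (median -0.80) and 7 of 8 atrial markers were called lower. The atrial list summed to 846 in 9wkKO and 3035 in 7wkKO, mostly Nppa, and its other 7 genes summed to 79.3 in 9wkKO and 708 in 7wkKO. Cardiomyocyte markers had 0 of 8 called in both comparisons, with 0 at an unadjusted p under 0.05 and medians of 0.04 and -0.03.

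Dusp1 and Errfi1 are also known to be induced by glucocorticoids, and genes known for that response were therefore counted. Of 14 tested, 4 were called lower in 9wkKO than in 7wkKO and 1, Mt2, higher, with 6 lower and 4 higher at an unadjusted p under 0.05 and a median log2 fold of -0.13. The authors' deposited table gave Fkbp5 9.52 FPKM in 9wkKO and 28.6 in 7wkKO (log2 fold -1.59) and Zbtb16 12.3 in 9wkKO and 37.0 in 7wkKO (log2 fold -1.58). It gave Tsc22d3 104 in 9wkKO and 162 in 7wkKO (log2 fold -0.64), and Ddit4 68.1 in 9wkKO and 94.4 in 7wkKO (log2 fold -0.47). The other 9 were not called, and neither were Dusp1 (log2 fold 0.22) and Errfi1 (-0.18). At 7 weeks 1 of the 14, Pdk4, was called higher and 0 lower. The part of this in the values of Dusp1 and Errfi1 was not tested.

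**Figure D5:**
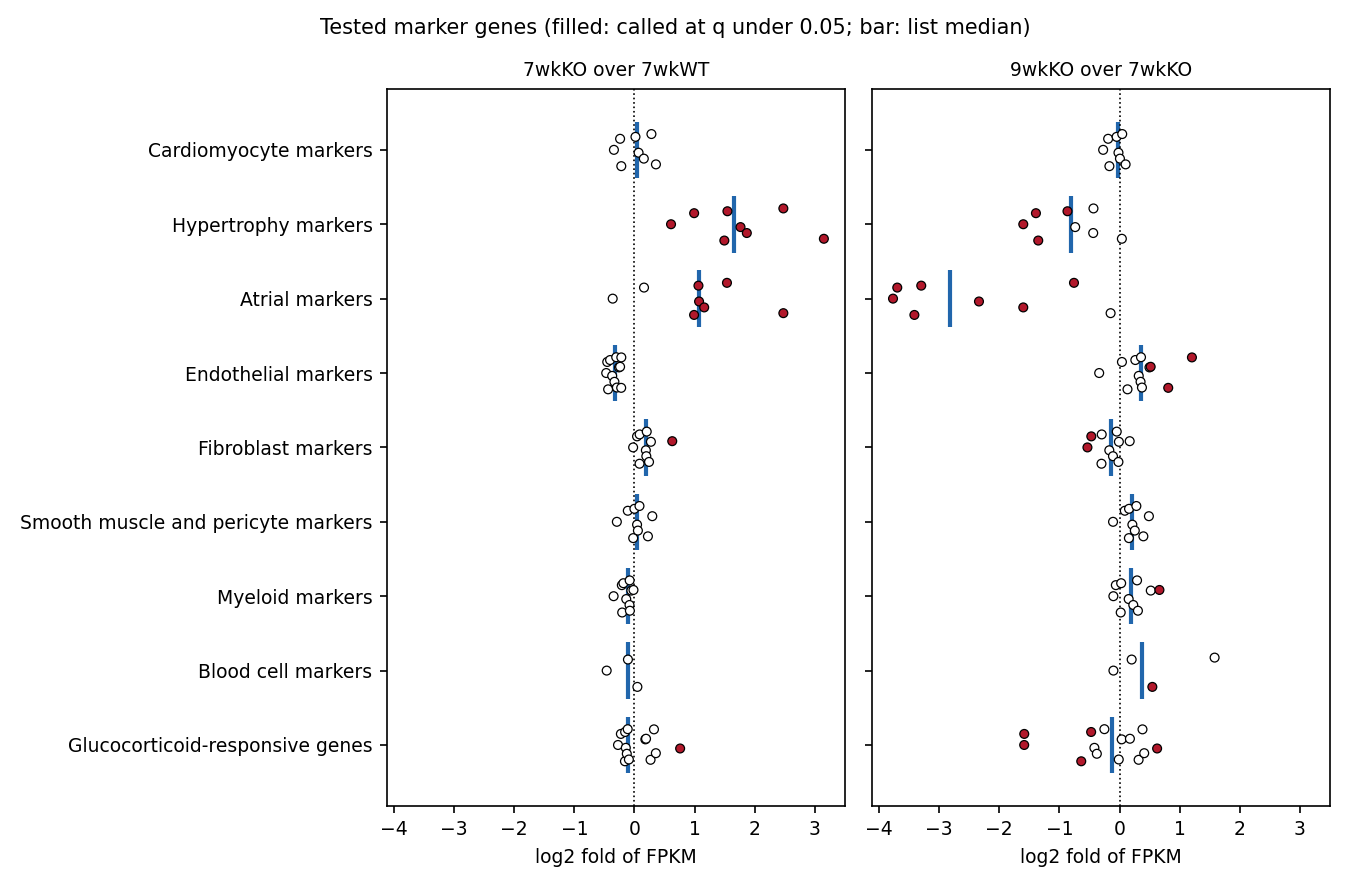
Log2 folds of tested marker genes by list for 7wkKO over 7wkWT (left) and 9wkKO over 7wkKO (right), 1 point per gene, filled where called, with the list median as a bar. Endothelial markers have a median of -0.32 on the left and 0.35 on the right, and atrial markers 1.07 and -2.82.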

How the data were processed

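Stranded poly(A)-selected libraries were prepared, per the labels' protocols, and the submitters' processing notes name TopHat2, Cuffdiff and mm10. No version or setting is given in the sources. The 4 tables used (gene and isoform level, 2 comparisons) hold group FPKM values, a test statistic (a score), p-values and q-values, all deposited by the authors. Replicates enter only through the authors' test, and depth per sample is unknown. The deposited log2 column was not used, because some of its cells held no number.

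Folds were recomputed as log2 ratios of FPKM without a pseudocount. Calls required a deposited q under 0.05 and status OK. Standard errors were implied as the fold divided by the statistic, or by the normal deviate of the deposited p. Table starts were raised by 1. Promoters are from RefSeq (GRCm38.p6), matched by symbol, and coding lengths from GENCODE M21.

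The members, 16 companion lists and the naming rule were chosen with earlier results of these data known. The rule names all members, Egfr, called list genes or else the 2 most abundant, and the 3 genes nearest to a called member. Marker lists are given mainly as counts. Calculations were tested on simulated data with normal errors. That checks the arithmetic and cannot show whether intervals read back from the deposited p are valid. Software was Python 3.11.15 with pandas 2.3.3, NumPy 2.4.6, Matplotlib 3.10.9 and SciPy 1.17.1. Alternatives were other q thresholds, a fold minimum, an FPKM filter, recomputed adjustment, the statistic alone, isoforms, pseudocounts, centring and a direct ratio.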

Additional observations from a re-analysis of the deposited data

How the results depend on the processing

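At 7 weeks 0 feedback genes were called under each alternative run. From 7 to 9 weeks Spry4 stayed called at a q under 0.1, with recomputed adjustment, with FPKM of at least 1 and in the isoform table. All of these settings reuse the same Cuffdiff p of 0.0012, so they give the call no separate support. The count was 0 at a q under 0.01, 0 with a minimum log2 fold of 0.58 and 0 with the statistic alone, where its wider errors leave 0 inside the interval. Over all tested genes the 284 calls at 7 weeks became 136 at a q under 0.01, 430 at a q under 0.1 and 14 with the statistic alone. The 561 calls from 7 to 9 weeks became 337 at a q under 0.01, 369 with the fold minimum and 69 with the statistic alone. Companion genes called fell to 6 at 7 weeks and 11 from 7 to 9 weeks with the statistic alone, against 18 and 28. Pseudocounts and centring changed the sign of 0 of 20 member folds, but a pseudocount of 1 shrank 3 of them by more than 1.5 times. These were Dusp4, to 0.07 at 7 weeks and 0.21 from 7 to 9 weeks, and Dusp5 at 7 weeks, to 0.28. No paired analysis was possible because the deposited tables hold group values only, and leaving out single replicates was not run for the same reason.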
